A study of Mus musculus with 8 samples.

Results

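Small nucleolar RNAs and other structural small RNAs are not translated, yet their sequences appeared in libraries of ribosome footprints as well as in libraries of total RNA from mouse J1 embryonic stem cells. The RNAs described here are the rows of the deposited tables whose symbol starts with Snora, Snord or Scarna, or with Rnu and a digit, together with Rmrp, Rpph1 and Rn7sk. There were 79 of them among the 13838 genes of either table. Of the 12818 genes in footprints 60 belonged to them, and of the 13436 genes in total RNA 78 did, and 59 stood in both tables. By class they were 41 box C/D snoRNAs (Snord), 23 box H/ACA snoRNAs (Snora), 9 small Cajal body RNAs (Scarna), U3 (Rnu3a), the U11 and U12 RNAs of the minor spliceosome (Rnu11 and Rnu12), the RNA subunits of RNase P (Rpph1) and RNase MRP (Rmrp), and 7SK (Rn7sk).

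Box C/D snoRNAs guide the 2′-O-methylation of ribosomal RNA and box H/ACA snoRNAs guide its pseudouridylation, while small Cajal body RNAs guide the same modifications on spliceosomal RNAs. Most of these guides are cut out of introns of host genes, whereas U3, U8 (Snord118), U13 (Snord13), 7SK and the RNase P and MRP RNAs are transcribed from promoters of their own. A few are needed for the cleavage of pre-ribosomal RNA rather than its modification, foremost U3, U8 and the U17 pair (Snora73a and Snora73b). All of them work in complexes with proteins, and none is known as a template of the ribosome.

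The cells (strain 129S4/SvJae) were grown on gelatin without feeder cells in serum and LIF. Knockdown cells were infected with shRNAs against eIF4A2, an RNA helicase of translation initiation (sheIF4A2-2 and sheIF4A2-3 are named), and control cells with shNT or shGFP. The sources used here do not say which shRNA went into which library. Knockdown and control cells alike had 3 days of puromycin at 1 µg/mL and 1 min of cycloheximide at 0.1 mg/mL, which holds ribosomes on mRNA, and were harvested on day 4.5. Each of the 4 groups (footprints of knockdown cells, footprints of control cells, total RNA of knockdown cells, total RNA of control cells) has 2 libraries, which the labels call biological replicates. The kit for both kinds of library included a depletion of ribosomal RNA, and reads were 50 bp long.

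Levels are given as CPM, reads scaled to a common library size, on the scale of the deposited tables. Over the listed genes, reads came to between 7947827 and 10682677 in footprint libraries and between 8564582 and 12840349 in total RNA libraries. Each read was worth between 0.0751 and 0.114 CPM. Eif4a2 itself had 311 and 153 CPM of footprints in knockdown cells against 395 and 409 CPM in control cells. Its total RNA was 583 and 617 CPM in knockdown cells, against 739 and 969 CPM in control cells. All 6 embryonic stem cell markers examined (Pou5f1, Nanog, Sox2, Zfp42, Esrrb, Klf4) were present in both tables. Their summed footprints were 2913 and 2671 CPM in knockdown cells against 4629 and 4650 CPM in control cells, and their summed total RNA was 3065 and 2999 CPM in knockdown cells against 4356 and 4995 CPM in control cells. In footprints 4 of the 6 and in total RNA 6 of the 6 lay below both control libraries, and the part of this difference in the values of the small RNAs was not tested. Of 6 fibroblast markers 3 were listed in the tables, and these summed to between 12.6 and 20.4 CPM in footprints and between 6.99 and 17.0 CPM in total RNA. In such bulk samples, fewer cells of one type and less RNA per cell cannot be told apart.

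The RNAs listed in 1 table only were scarce, as were many of those listed in both. Snord98 was the 1 member listed only among footprints, at 1.35 and 1.46 CPM in knockdown cells against 0.531 and 0.496 CPM in control cells, which is 12 and 14 reads against 5 and 5 reads. The 19 members listed only in total RNA had between 2 and 142 reads per library and means over all libraries between 0.833 and 9.67 CPM. They were the H/ACA RNAs Snora20, Snora2b, Snora30, Snora34, Snora41, Snora47 and Snora73a, and the C/D RNAs Snord11, Snord111, Snord14a, Snord35b, Snord42a, Snord4a, Snord58b, Snord59a, Snord70, Snord71, Snord72 and Snord92. Both deposited tables contain only genes that passed the authors' filter, so a missing row does not mean that no read was found. Low counts were common, since 25 of 60 members in footprints and 42 of 78 in total RNA had under 100 reads in every library.

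A few large RNAs made up most of the signal. By reads, with no correction for length, Rmrp ranked 1 and 2 of the whole footprint table in the knockdown libraries and 1 and 2 in the control libraries, while Rn7sk ranked 1 in all 4 total RNA libraries. Summed over all members, footprints came to 33468 and 32881 CPM in knockdown cells against 36951 and 44894 CPM in control cells. Total RNA came to 22831 and 18706 CPM in knockdown cells against 20486 and 32074 CPM in control cells, with overlapping groups. Without Rmrp, Rpph1, Rn7sk and Rnu11 the total RNA sum of the other 74 was 1356 and 1119 CPM in knockdown cells against 2378 and 2305 CPM in control cells, a ratio of the means of 0.529. U3 alone had means of 322 CPM in knockdown cells and 1097 CPM in control cells within that sum.

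Rmrp, the RNA of the RNase MRP complex that cuts pre-ribosomal RNA, had 15215 and 19816 CPM of footprints in knockdown cells and 18829 and 28421 CPM in control cells. In total RNA it had 6461 and 4690 CPM in knockdown cells and 4751 and 9623 CPM in control cells. The groups overlapped in both assays. Rpph1, the catalytic RNA of RNase P that trims the 5′ ends of tRNAs, overlapped likewise, with 7473 and 4845 CPM of footprints in knockdown cells against 8329 and 4563 CPM in control cells. Its total RNA was 5530 and 4226 CPM in knockdown cells against 4683 and 8767 CPM in control cells. For both RNAs control 2 was the highest total RNA library, and the log2 fold changes in total RNA (-0.30 ± 0.38 SE for Rmrp, -0.41 ± 0.34 SE for Rpph1) turned to 0.21 and 0.05 without it.

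Rn7sk, which holds the elongation factor P-TEFb in an inactive complex, had 9352 and 8557 CPM of total RNA in knockdown cells and 8567 and 11293 CPM in control cells, again overlapping. Its footprint libraries did not resemble each other. Knockdown 1 had 2106 CPM and knockdown 2 had 239 CPM, against 364 and 438 CPM in control cells, so that 1 knockdown library was the highest of the 4 and the other the lowest. The fitted log2 fold change of 0.83 ± 0.77 SE (limma adjusted p = 0.698) rests on knockdown 1, and was -0.74 without it. Without knockdown 2 it was 2.40. Knockdown 1 also gave Snora57, an H/ACA RNA with 17.9 and 1.67 CPM of footprints in knockdown cells against 1.91 and 3.47 CPM in control cells, its highest level.

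The RNAs of the minor spliceosome, which removes a rare class of introns, differed from each other in where their reads lay. Rnu11 had 7281 and 7014 CPM of footprints in knockdown cells against 8054 and 9948 CPM in control cells. Its total RNA was 131 and 114 CPM in knockdown cells against 108 and 87.5 CPM in control cells. Footprints thus lay below and total RNA above control in both knockdown libraries, the only member of the 59 in both tables with that pattern, though neither difference passed the test (adjusted p = 0.686 in footprints and 0.415 in total RNA, limma). Rnu12 had similar levels in both assays, with 285 and 209 CPM of footprints in knockdown cells against 195 and 207 CPM in control cells. In total RNA Rnu12 had 206 and 187 CPM in knockdown cells against 187 and 277 CPM in control cells.

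U3 showed the largest difference of all members in total RNA. Rnu3a, the guide that base-pairs with pre-ribosomal RNA for the cleavages that release the small-subunit rRNA, had 346 and 298 CPM of total RNA in knockdown cells against 1220 and 973 CPM in control cells. Both knockdown libraries lay far below both control libraries, and the means of 322 ± 34.6 and 1097 ± 174 CPM (SD, n = 2 each) put the knockdown at 29.4% of control. By limma the log2 fold change was -1.76 ± 0.18 SE with an adjusted p of 0.0819, which misses the threshold of 0.05. Footprint-size fragments of U3 did not differ in the same way, at 468 and 296 CPM in knockdown cells against 412 and 358 CPM in control cells (-0.04 ± 0.23 SE, adjusted p = 0.955, with a sign that flips to 0.08 when each column is scaled to its own total). A near-identical second U3 gene exists in the mouse, and the sources used here do not say how reads that match both genes were counted.

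**Figure D1:**
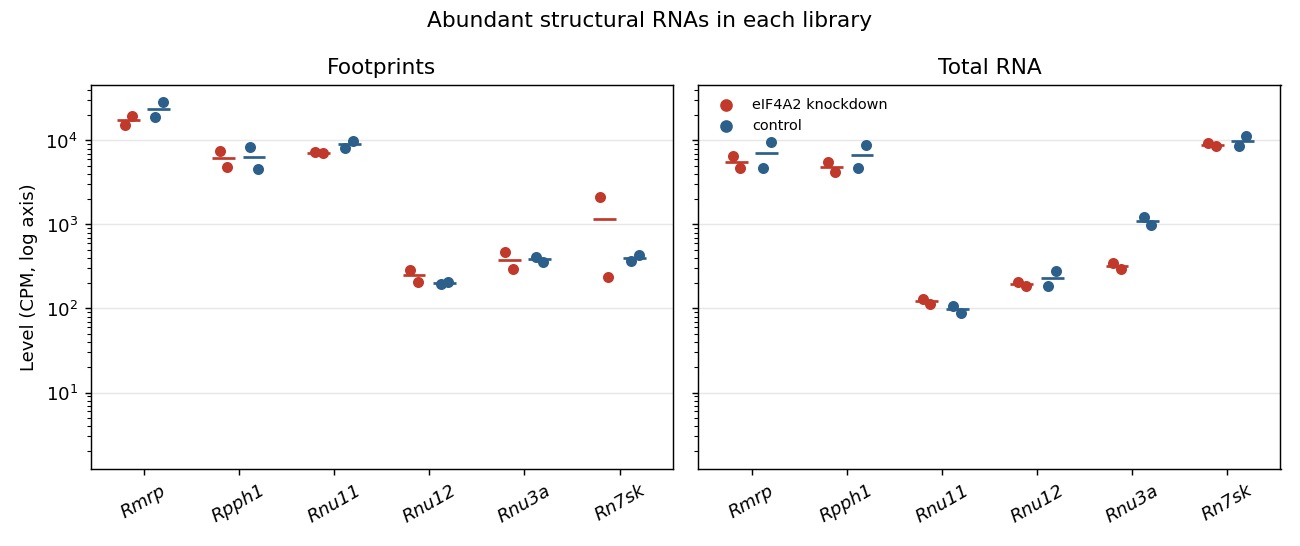
Levels of the 6 abundant RNAs in footprints (left) and total RNA (right), in CPM on a log axis, with 1 point per library and a line at the group mean (n = 2). Knockdown libraries are red and control libraries blue. U3 (Rnu3a) separates the groups in total RNA at 346 and 298 against 1220 and 973 CPM, and the footprints of Rn7sk are spread between 2106 and 239 CPM within the knockdown.

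Per length, the order of the abundant RNAs changed between the assays. Divided by RefSeq length, control footprints of Rnu11 were 74576 and 92112 CPM per kb and those of Rmrp 68468 and 103348 CPM per kb, so these RNAs did not differ beyond their spread. Rpph1 followed at 25629 and 14041 CPM per kb, and Rnu3a, Rnu12 and Rn7sk lay between 1095 and 1943 CPM per kb. In control total RNA, Rn7sk (25805 and 34015 CPM per kb), Rmrp (17275 and 34992) and Rpph1 (14409 and 26974) overlapped at the top, followed by Rnu3a at 5754 and 4592, Rnu12 at 1248 and 1849, and Rnu11 at 1000 and 810 CPM per kb. In knockdown total RNA, U3 with 1634 and 1403 CPM per kb was close to Rnu12 with 1374 and 1247 CPM per kb.

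Across all members, total RNA was more often lower than higher in knockdown cells. Of the 78 members tested 59 had a negative log2 fold change, with a median of -0.32, while the median over all genes tested was -0.002. Knockdown libraries lay below both control libraries for 35 members, against 24.6% of all genes tested, and above both for 3 members (Rnu11, Snord35b and Snora47), against 23.3% of all genes. By limma with Benjamini-Hochberg adjustment 0 members passed (0% of all genes tested). At an unadjusted p under 0.05 it gave 17 members lower (8.08% of all genes) and 0 higher (6.82%). DESeq2 called 5 members lower (1.25% of all genes), edgeR's quasi-likelihood test called 0, limma with the replicate number as a block called 8 lower (2.61%), and the authors' deposited table has 9 members lower at its adjusted p under 0.05 (3.19% of its genes) and 0 higher (2.21%). These 9 were Rnu3a, Snord118, Snord13, Snora16a, Snora68, Snora69, Snora73a, Snora73b and Snora74a, and the 5 of DESeq2 (Rnu3a, Snord118, Snora68, Snora73b, Snora74a) were among them. Leaving out total RNA control 1 brought 26 members past limma's threshold as lower (23% of all genes) and 8 as higher (23.1%), and leaving out control 2 brought 20 as lower (13.3%) and 0 as higher (12%). The log2 fold change of Rnu3a was -1.87 without knockdown 1 and -1.65 without knockdown 2.

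The shift was not spread evenly over the libraries. Knockdown 2 was the lowest of the 4 total RNA libraries in 52 of 78 members (66.7%, against 22.1% of all genes) and the highest in 0, while knockdown 1 was the highest in 18. Without knockdown 2 the median over members was -0.18, and without knockdown 1 it was -0.47. Whether a property of that library plays a part in the members' values was not tested.

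Box H/ACA RNAs had lower total RNA almost throughout. Of 23 measured, 22 had negative log2 fold changes (median -0.45), with Snora47 the exception. Knockdown libraries lay below both control libraries for 18 (78.3%, against 24.6% of all genes). They lay above both for 1, Snora47 (23.3% of all genes), and 4 overlapped. Their summed level was 362 and 287 CPM in knockdown cells against 502 and 505 CPM in control cells. The count of negative values stayed between 20 and 22 of 23 when each library was left out, and the median between -0.60 and -0.36.

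Among named H/ACA RNAs, Snora74a (U19) had 35.1 and 25.6 CPM of total RNA in knockdown cells against 66.2 and 62.8 CPM in control cells, 47.1% of control (-1.08 ± 0.19 SE, limma adjusted p = 0.114). Snora73b and Snora73a are near-identical copies of the U17 RNA that takes part in processing of the small-subunit rRNA. Snora73b had 52.7 and 46.4 CPM in knockdown cells against 73.8 and 99.4 CPM in control cells, and Snora73a had 7.02 and 5.19 CPM against 10.7 and 15.7 CPM in control cells. Both pairs of groups were separate, but the division of reads between the copies is uncertain. Snora68, a pseudouridylation guide, had 15.3 and 11.05 CPM in knockdown cells against 24.1 and 27.8 CPM in control cells (-0.94 ± 0.21 SE, adjusted p = 0.134). Snora16a followed with 18.8 and 15.9 CPM in knockdown cells against 29.1 and 31.6 CPM in control cells, and Snora69 with 2.60 and 2.55 CPM against 4.80 and 5.88 CPM in control cells. Snora57 had 70.2 and 48.4 CPM of total RNA in knockdown cells against 78.3 and 69.2 CPM in control cells, and overlapped. At the other end, Snora47 had 1.97 and 1.503 CPM in knockdown cells against 1.14 and 1.44 CPM in control cells, between 10 and 25 reads in each library.

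Box C/D RNAs were divided in total RNA. Of 40 measured, 24 were negative and 16 positive with a median of -0.08, which became 0.08 without knockdown 2, and 12 lay below control in both knockdown libraries, a share of 30% beside 24.6% of all genes. The 2 lowest were U8 and U13, which have promoters of their own. Snord118 (U8), needed for the maturation of the large-subunit rRNAs, had 7.97 and 6.46 CPM in knockdown cells against 17.2 and 15.9 CPM in control cells, 43.6% of control (-1.10 ± 0.19 SE, adjusted p = 0.112). Snord13 (U13), which pairs with the small-subunit rRNA, had 19.6 and 13.4 CPM in knockdown cells against 32.4 and 26.8 CPM in control cells, 55.6% of control (-0.83 ± 0.22 SE, adjusted p = 0.191). U3, U8 and U13 were thus all lower in both knockdown libraries. Rmrp, Rpph1 and Rn7sk, also transcribed from promoters of their own, overlapped in total RNA. Snora74a and Snora73a, which lie within host genes, had log2 fold changes of -1.08 and -0.99. The part of promoter type in these values was not tested. The other 38 C/D RNAs had a median of -0.07, and values ranged from -0.64 for Snord65 to 0.67 for Snord83b.

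The C/D RNAs with the highest fold changes in total RNA gave values with wide spread. Snord83b lies in the ribosomal protein gene Rpl3. It had 41.8 and 24.8 CPM in knockdown cells against 31.9 and 12.3 CPM in control cells (0.67 ± 0.46 SE, limma adjusted p = 0.541). Snord7 had 3.87 and 3.01 CPM in knockdown cells against 3.77 and 1.11 CPM in control cells. For both, and for Snord92 with 1.10 and 0.977 CPM against 1.03 and 0.222 CPM in control cells, control 2 was the lowest library. The sign for Snord7 changed to -0.11 when control 2 was left out. Snord35b had 2.45 and 1.65 CPM in knockdown cells against 1.14 and 1.44 CPM in control cells, the C/D RNA above both control libraries.

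Small Cajal body RNAs were lower in total RNA in 8 of 9 cases by the sign of the fold change, with a median of -0.43 that was -0.19 without control 2 and -0.24 without knockdown 2. Scarna13, with 39.8 and 40.7 CPM in knockdown cells against 53.2 and 67.1 CPM in control cells, and Scarna8, with 9.08 and 7.36 CPM against 11.1 and 12.6 CPM in control cells, lay below both control libraries. So did Scarna6, at 19.4 and 14.8 CPM against 19.5 and 27.5 CPM in control cells, and Scarna17, at 6.5 and 5.7 CPM against 8.7 and 6.9 CPM. That made 4 of 9 (44.4%), beside 24.6% of all genes. Scarna2, the most abundant of the class, had 88.2 and 73.1 CPM in knockdown cells against 77.0 and 166 CPM in control cells, and Scarna10 had 20.7 and 16.7 CPM against 19.5 and 44.6 CPM in control cells. In those, and in 7 of 9 scaRNAs in all, control 2 was the highest library. Scarna3a, Scarna3b and Scarna9 overlapped, with log2 fold changes of -0.32, -0.03 and 0.05.

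**Figure D2:**
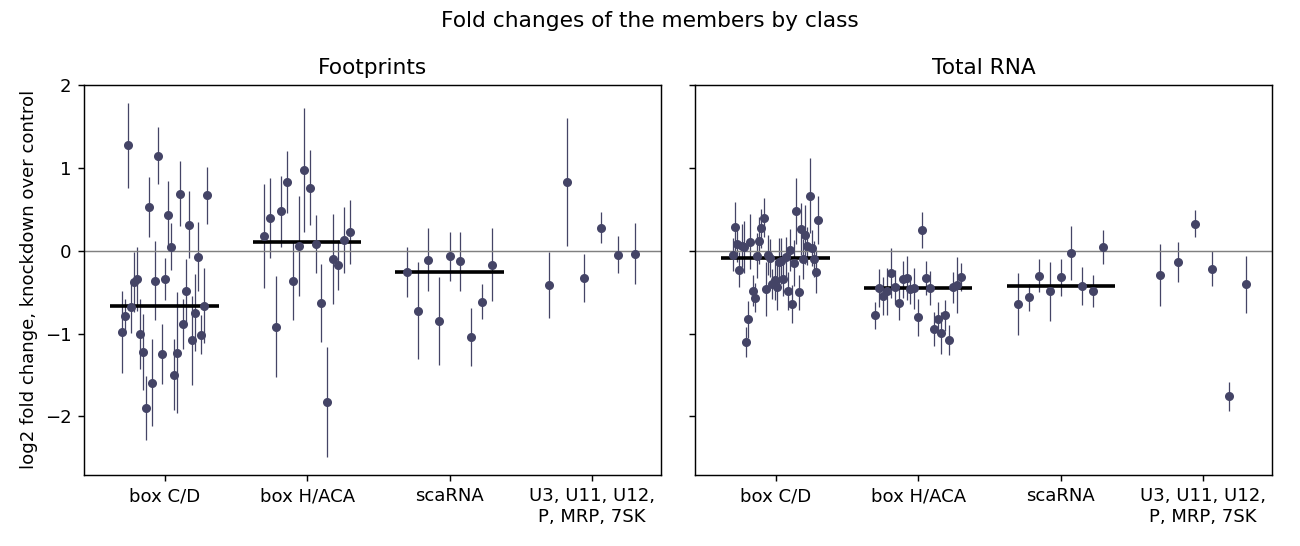
Log2 fold change of each member, knockdown over control, on the log2(CPM + 1) scale in footprints (left) and total RNA (right), by class. Points are members with the standard error of the fit as a bar, and thick lines are class medians. In total RNA the box H/ACA median is -0.45 and the box C/D median -0.08, while in footprints they are 0.11 and -0.66, and U3 is the lowest point in total RNA at -1.76.

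In footprints the classes were ordered the other way. Of the 60 members tested 40 were negative, with a median of -0.29 beside 0.005 over all genes. Knockdown libraries lay below both control libraries for 16 members, where 22.5% of all genes did so, and above both for 7, where 22.3% did. By limma 0 members passed (0% of all genes tested), with 12 lower at an unadjusted p under 0.05 (6.74% of all genes) and 2 higher (6.12%). On 3 of the libraries (without control 2), edgeR's quasi-likelihood test called 0. The authors' deposited table has 4 members lower at its adjusted p under 0.05 (0.889% of its genes), namely Snord17, Snord19, Snord60 and Snord87, and 0 higher (0.788%). Scaling each column to its own total moved the median over all genes to 0.12 and that of the members to -0.17.

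One library weighed on these counts as well. Knockdown 2 was the lowest of the 4 footprint libraries in 36 of 60 members (60.0%, against 26.5% of all genes), and without it the members' median was 0.14. Of the scaRNAs 9 of 9 were negative with all libraries, but 3 of 9 were without knockdown 2. Box H/ACA RNAs had 6 of 16 negative values with all libraries (median 0.11), 14 of 16 without knockdown 1 and 4 of 16 without knockdown 2, so that their direction in footprints was set by which knockdown library was read.

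The median of box C/D footprints stayed negative. Of 29 measured 21 were negative, with a median of -0.66. When each library was left out the median lay between -0.74 and -0.31, and without knockdown 2 17 were negative. Knockdown libraries lay below both control libraries for 12 (41.4%, against 22.5% of all genes). They lay above both for 5, where 22.3% of all genes did. Their summed level was 271 and 244 CPM in knockdown cells against 421 and 461 CPM in control cells, groups that did not overlap.

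The largest decrease in value was that of Snord19, with 0.900 and 2.82 CPM of footprints in knockdown cells against 7.44 and 11 CPM in control cells, 20.2% of control (-1.90 ± 0.39 SE, limma adjusted p = 0.125). Its total RNA was 1.26 and 1.95 CPM in knockdown cells against 1.26 and 2.22 CPM in control cells and overlapped. Snord69, which lies in the same host gene, Gnl3, a nucleolar GTPase of stem cells, had 10.9 and 6.17 CPM of footprints in knockdown cells against 18.7 and 13.8 CPM in control cells. Snord87 had 12.6 and 12.1 CPM of footprints in knockdown cells against 21.7 and 31.0 CPM in control cells (-1.01 ± 0.24 SE, adjusted p = 0.156), again with overlapping total RNA. These footprint values were lower in both knockdown libraries for all 3 guides.

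Snord60 had 4.50 and 3.56 CPM of footprints in knockdown cells against 7.65 and 22.1 CPM in control cells, and Snord17 had 11.4 and 9.10 CPM against 13.6 and 45.5 CPM in control cells. In both, control 2 was well above control 1. Snord49a had 5.63 and 12.3 CPM in knockdown cells against 16.7 and 27.2 CPM in control cells (-1.25 ± 0.37 SE, adjusted p = 0.231). Snord35a, one of the Rpl13a snoRNAs known from lipid stress in cultured cells, had 4.28 and 0.837 CPM in knockdown cells against 5.52 and 12.5 CPM in control cells. Among H/ACA RNAs, Snora73b had 21.6 and 3.56 CPM of footprints in knockdown cells against 22.3 and 54.5 CPM in control cells, with knockdown 1 close to control 1. Snord104, the C/D RNA with the most footprints, had 65.1 and 79.5 CPM in knockdown cells against 151 and 104 CPM in control cells, and Snord83b had 69.2 and 19.8 CPM against 73.0 and 54.7 CPM in control cells.

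Among the snoRNAs with higher footprint values, several rested on few reads. Snord45b had 1.80 and 1.99 CPM in knockdown cells against 0.212 and 0.396 CPM in control cells (1.15 ± 0.35 SE, limma adjusted p = 0.248), which is 16 and 19 reads against 2 and 4 reads. Snord107, from the imprinted Prader-Willi region, had 2.59 and 10.9 CPM in knockdown cells against 1.91 and 1.49 CPM in control cells (1.28 ± 0.51 SE, adjusted p = 0.345). Snora28 had 1.01 and 1.46 CPM in knockdown cells against 0.425 and 0.0991 CPM in control cells, which is 9 and 14 reads against 4 reads and 1 read. Groups did not overlap for these 3, nor for Snord98, Snord65, Snord23 and Rnu12 on the same side.

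Among the scaRNAs, footprints of Scarna8 were 70.2 and 45.8 CPM in knockdown cells against 87.9 and 86.8 CPM in control cells (-0.61 ± 0.22 SE, adjusted p = 0.289). Scarna6 had 7.09 and 9.10 CPM in knockdown cells against 11.9 and 25.9 CPM in control cells (-1.04 ± 0.35 SE, adjusted p = 0.279). Groups were separate for these alone, 2 of 9 (22.2%), where 22.5% of all genes lay below both control libraries. Scarna2 had 36.9 and 72.5 CPM in knockdown cells against 48.8 and 180 CPM in control cells, and Scarna13 had 55.5 and 11.8 CPM against 59.8 and 31.5 CPM in control cells. The other 5 (Scarna3a, Scarna3b, Scarna9, Scarna10, Scarna17) had log2 fold changes between -0.26 and -0.06.

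**Figure D3:**
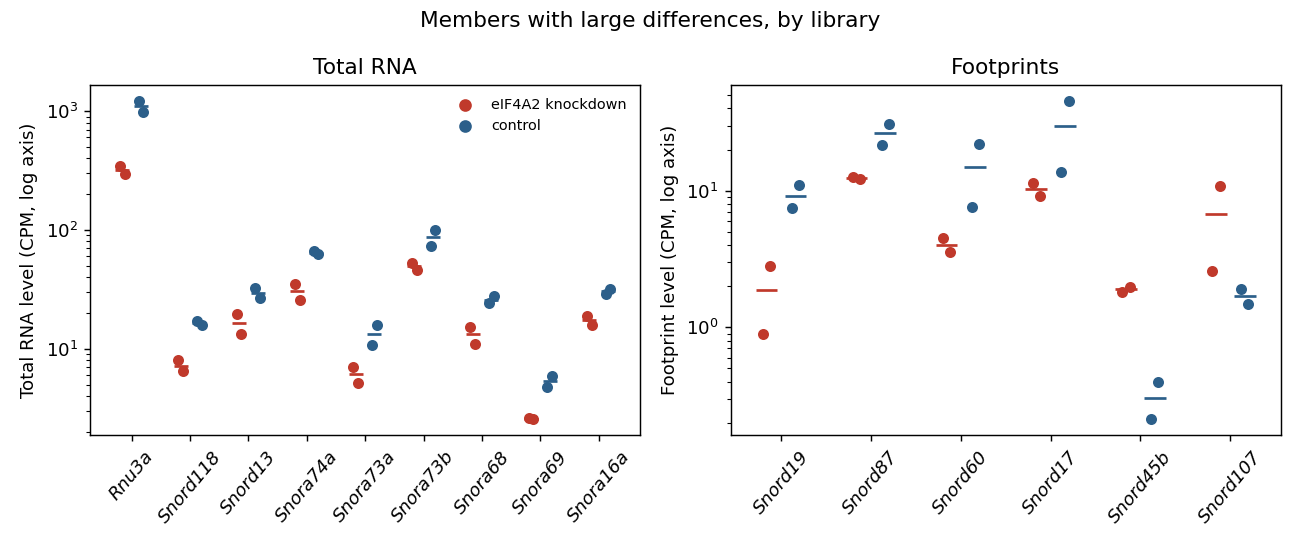
Members with large differences in total RNA (left) and footprints (right), in CPM on log axes, with 1 point per library and a line at the group mean (n = 2). Knockdown libraries are red and control libraries blue. In total RNA the 9 members shown have both knockdown points below both control points, and in footprints Snord19, Snord87, Snord60 and Snord17 do too, while Snord45b and Snord107 lie above.

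Fragments in footprints and total RNA were set against each other by the interaction of assay and knockdown, the term that for mRNAs is read as a change in translational efficiency. For untranslated RNAs it compares footprint-size fragments with total RNA. None of the 59 members passed by limma (0 members, 0% of all genes tested, smallest adjusted p = 1.00). At an unadjusted p under 0.05 there were 10 members (1.55% of all genes), 5 lower (0.599%) and 5 higher (0.955%). Rnu3a had the highest value, 1.72 ± 0.32 SE, as its total RNA was lower and its footprints were not. Snord65 (1.34 ± 0.46), Snora57 (1.31 ± 0.95), Snora28 (1.27 ± 0.37) and Snord45b (1.24 ± 0.37) followed. The lowest were Snord35a (-1.86 ± 0.67), Snord19 (-1.84 ± 0.52), Snord83b (-1.42 ± 0.77), Snord64 (-1.24 ± 0.98) and Snord82 (-1.14 ± 0.68). The median was 0.65 over 16 H/ACA RNAs and -0.59 over 28 C/D RNAs, beside -0.005 over all genes tested. The signs of Snora57 and Snord64 changed without footprint knockdown 1, to -0.10 and 0.03.

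Counting libraries rather than fitted values, 8 of the 59 members were below control in both assays with no overlap (Scarna6, Scarna8, Snora73b, Snord15a, Snord17, Snord49a, Snord49b and Snord60), beside 12.4% of all genes tested in both. Snora28 and Snord65 were higher in footprints and lower in total RNA (1.04% of all genes), and Rnu11 was the reverse (0.753%). A further 15 were lower in total RNA with overlapping footprints, among them U3 (11.5% of all genes), and 22 overlapped in both (33.1%).

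The ratio of footprint to total RNA level set the classes apart within control cells alone. It is a level set across 2 tables that were normalized separately, so it is given as a description, with no test. For protein-coding genes the log2 ratio had a median of -0.28 in knockdown cells and -0.30 in control cells, and in control cells 90% of them lay between -1.54 and 0.73. Box H/ACA RNAs had a median of -1.52 in knockdown cells and -2.00 in control cells. In control cells 15 of these 16 were below 0, and 9 were under the coding range. Box C/D RNAs had a median of 0.09 in knockdown cells and 0.26 in control cells. In control cells 12 of these 28 were above the coding range and 3 below it, and those 3 were Snord118, Snord13 and Snord45b.

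The extremes lay well outside the band that holds 90% of coding genes, whose own ratios ran from -3.88 to 6.53 in control cells. Rnu11 had 58.4 times as much footprint as total RNA signal in knockdown cells and 92.1 times in control cells. Snord85 had 9.36 and Snord69 5.94 times in knockdown cells, against 11.3 and 9.94 times in control cells, and Scarna8 had 7.06 times in knockdown cells and 7.37 times in control cells. On the other side, Rn7sk had 7.64 times as much total RNA as footprint signal in knockdown cells and 24.8 times in control cells. For Snora57 that excess of total RNA was 6.06 times in knockdown cells and 27.4 times in control cells, for Snora33 7.88 times in knockdown cells and 18.1 times in control cells, and for Snora24 5.41 times in knockdown cells and 11.7 times in control cells. The knockdown ratios of Rn7sk and Snora57 include the high footprint value of knockdown 1.

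**Figure D4:**
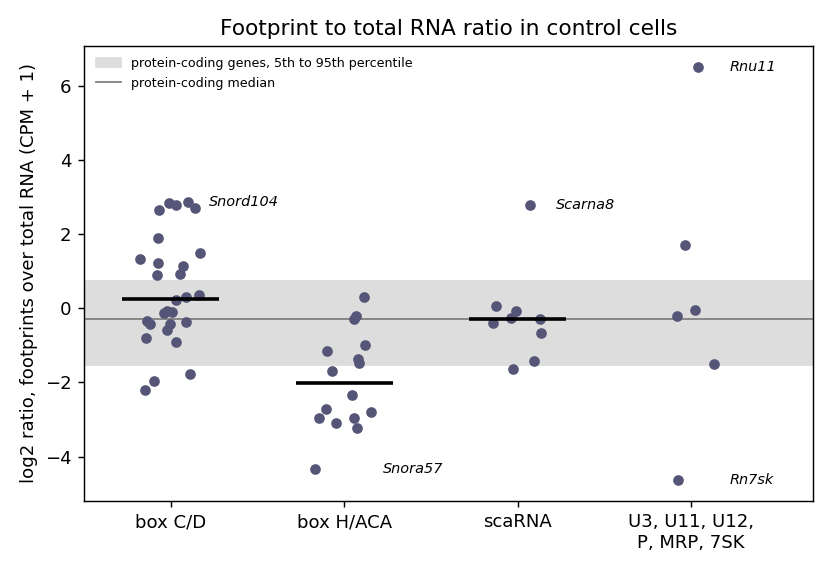
Log2 ratio of footprint over total RNA level, from control means with 1 CPM added, for the 59 members in both tables by class. Points are members, thick lines class medians, and the grey band the 5th to 95th percentile of protein-coding genes (-1.54 to 0.73) around their median of -0.30. Box H/ACA RNAs lie mostly below the band's middle with a median of -2.00, and Rnu11 (6.51) and Rn7sk (-4.63) are the extremes.

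Length differed between the classes as well. The median RefSeq length was 129.5 nucleotides for 16 H/ACA RNAs and 70.5 for 26 C/D RNAs with a length. Across 51 snoRNAs and scaRNAs the ratio in control cells was lower for longer RNAs (Pearson r = -0.33, Spearman rho = -0.38), a description over RNAs that share the same libraries. Lengths of some entries appear to cover part of the RNA only, and the part of length in the ratio was not tested.

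Host genes were compared because an intronic snoRNA and its host come from 1 transcript. Of the 79 RNAs 67 lay within the span of a RefSeq gene, and none lay within Eif4a2 or Eif4a1. Any such gene on either strand was taken as a host, so some pairs need not share a transcript. A member within several genes was paired with each that was measured. In total RNA 58 members had a measured host, 49 hosts in all, with a median of -0.33 for members and -0.21 for hosts. The member was below its host in 36 of 59 pairs. In footprints the medians were -0.21 for 40 members and -0.08 for 36 hosts.

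Pairs differed from each other. Snhg3, a noncoding host whose introns carry the U17 copies, had a log2 fold change of -0.70 ± 0.20 SE in total RNA beside -0.99 ± 0.25 for Snora73a and -0.78 ± 0.19 for Snora73b. Snhg12 had -0.35 ± 0.15 beside -0.78 ± 0.17 for Snora16a. In the opposite order, Rabggtb, a subunit of a Rab prenylating enzyme, had -0.74 ± 0.17 beside -0.09 ± 0.23 for Snord45b. In footprints Gnl3 had -0.63 ± 0.22 beside -1.90 ± 0.39 for Snord19, and Rpl13a had -0.21 ± 0.21 beside -1.59 ± 0.53 for Snord35a. Reads in exons that overlap a small RNA cannot be told apart from the small RNA itself in these tables.

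Proteins that bind, build and process these RNAs were examined as 12 lists, of which 143 genes were tested in each assay. By limma 0 of them passed in either assay (0% of all genes tested). At an unadjusted p under 0.05 there were 12 lower (6.74% of all genes) and 4 higher (6.12%) in footprints, and 6 lower (8.08%) and 8 higher (6.82%) in total RNA. DESeq2 called 1 in total RNA, where it called 1.25% of all genes lower and 0.774% higher. The quasi-likelihood test of edgeR called 0 in total RNA. The median log2 fold change over all lists was -0.09 in footprints and 0.03 in total RNA. The authors' deposited table has 2 higher in footprints (Hexim1 and Ccnt1), beside 0.788% of its genes. In total RNA it has 2 lower (Polr3f and Snhg3), beside 3.19% of its genes, and 2 higher (Hexim1 and Meg3), beside 2.21%.

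Core snoRNP proteins showed small values. The box C/D proteins (4 tested) had medians of -0.14 in footprints and -0.19 in total RNA, with Nop56, Nop58 and Snu13 having the smallest p in both. The box H/ACA proteins (4 tested) had medians of -0.15 and -0.05, led in the same sense by Dkc1, the pseudouridine synthase, Nop10 and Gar1. Dkc1 had -0.26 ± 0.23 SE in footprints and -0.18 ± 0.21 SE in total RNA. Of 13 assembly factors 10 were negative in footprints (median -0.12) and 6 in total RNA, and those with the smallest p were Ruvbl1, Nufip1 and Nop53 in footprints and Ruvbl2, Naf1 and Nop53 in total RNA. Of 24 proteins of the U3 particle and small subunit processome 15 were negative in footprints (median -0.11) and 11 in total RNA (median 0.03). In that list Pno1 (-0.70 ± 0.18), Mphosph10 (-0.50 ± 0.20) and Utp3 (-0.36 ± 0.15) had the smallest p in footprints, and Imp3 (-0.50 ± 0.14), Pdcd11 and Bms1 in total RNA.

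The partners of 7SK held the highest log2 fold changes in footprints of all lists. Hexim1, which 7SK uses to inhibit P-TEFb, had 123 and 114 CPM of footprints in knockdown cells against 66.6 and 58.7 CPM in control cells (0.91 ± 0.16 SE, limma adjusted p = 0.103). Its total RNA was 121 and 130 CPM in knockdown cells against 73.4 and 86.5 CPM in control cells (0.65 ± 0.15 SE, adjusted p = 0.143). Ccnt1, the cyclin of P-TEFb, had 59.4 and 56.5 CPM of footprints in knockdown cells against 35.1 and 29.0 CPM in control cells (0.84 ± 0.18 SE, adjusted p = 0.137). Both genes were above both controls in each assay. Mepce had 0.19 ± 0.18 in footprints and Hexim2 -0.48 ± 0.18 in total RNA, and the list's medians were 0.18 and 0.24 over 7 genes.

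Polr3f, a subunit of RNA polymerase III, which makes 7SK and the RNase P and MRP RNAs, had 31.2 and 36.5 CPM of total RNA in knockdown cells against 51.3 and 64.9 CPM in control cells (-0.76 ± 0.18 SE, limma adjusted p = 0.149). Polr3a, another subunit, had 0.41 ± 0.15 in total RNA. In footprints Polr3f had -0.77 ± 0.32, Polr3a 0.36 ± 0.18 and Polr3g -0.28 ± 0.17. Of 11 RNase P and MRP proteins 9 were negative in footprints and 7 in total RNA. Pop1 had 0.30 ± 0.16 in footprints and 0.38 ± 0.15 in total RNA, and Rpp25 had -0.43 ± 0.20 and -0.31 ± 0.15, with Pop7 in footprints and Pop4 in total RNA beside them.

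In the remaining lists, Sm and Lsm proteins had medians of -0.13 in footprints and -0.06 in total RNA, with Snrpd1 at -0.72 ± 0.18 and Snrpe at -0.73 ± 0.32 in footprints, ahead of Snrpd3, and Snrpf, Lsm2 and Lsm4 in total RNA. The snRNP-specific proteins (Snrpc, Snrpa1 and Prpf3 in footprints, Snrnp70, Prpf8 and Prpf31 in total RNA) and the Cajal body proteins (Coil, Smn1 and Gemin2 in footprints, Coil, Wrap53 and Gemin2 in total RNA) had medians between 0.01 and 0.07. Among factors of small RNA end processing, Tent4b, a poly(A) polymerase of nuclear RNA decay, had 0.43 ± 0.18 in footprints and 0.37 ± 0.13 in total RNA, with Exosc2 and Ints1 next in footprints and Ints1 and Ints3 in total RNA. The 10 genes tested from the list of noncoding snoRNA hosts had medians of -0.53 in footprints and -0.33 in total RNA, each with 8 negative. Snhg3, Snhg9 and Snhg20 were lowest by p in footprints at -0.79 ± 0.20, -0.94 ± 0.28 and -0.92 ± 0.26. In total RNA Gas5 had -0.55 ± 0.19 and Meg3 1.35 ± 0.38. Meg3 had 398 and 383 CPM of total RNA in knockdown cells against 234 and 99.7 CPM in control cells. No member described here lay within Gas5 or Meg3.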

How the data were processed

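Footprints and total RNA of knockdown and control cells were compared within each deposited table. The library columns hold signal on the CPM scale, which the authors made by dividing reads per gene by an effective library size. The deposited tables also hold the authors' log2 fold changes and log2 CPM, a likelihood ratio as a score, and p-values with their adjusted form. Per the submitters' processing notes, build mm9 was used with edgeR 3.26.8, HTSeq 0.11.2, TopHat2 2.1.1 and Bowtie 1.2.3, whose roles are not given, and the sources used here do not say how strand and reads that match several places were treated. All values are whole multiples of what 1 read is worth (within 0.01 read), so reads were read back from the columns. In footprint control 2 that step could not be told from rounding, so its read counts are less certain. No count test uses that library, but the filter on counts does.

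limma 3.58.1 in R 4.3.3 was fitted to log2(CPM + 1) of all genes kept by edgeR 4.0.16 filterByExpr (minimum count 10, minimum total 15), with Benjamini-Hochberg adjustment over all genes and a threshold of 0.05. The filter kept all 60 and 78 members. The scale understates changes of low genes. The interaction used all 8 libraries. DESeq2 1.42.0 and edgeR's quasi-likelihood test were run on reads as alternatives. The steps were tested on simulated data. Exact tests of single genes cannot pass the threshold with 2 libraries per group. Intervals were not computed, and reads without molecular identifiers are not independent molecules.

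Members and lists were chosen with earlier results of these data known. Genes named are the members in 1 table, all Scarna and Rnu members, Rmrp, Rpph1, Rn7sk, the 10 most abundant per table, the 5 highest and 5 lowest per contrast, and the 3 smallest p per protein list, except that some genes are not reported here. Others, such as Snord69 or those of the authors' deposited calls, were named after their values were seen. RefSeq (GRCm38.p6) gave lengths and host spans, without strand, for 77 members matched by symbol, and none of its coordinates is used.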

Additional observations from a re-analysis of the deposited data

How the results depend on the processing

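Members called by limma numbered 0 in each contrast. In footprints the authors' deposited table has 4. In total RNA the counts were 5 with DESeq2, 9 in the authors' deposited table, 1 (Rnu3a) with all 8 libraries in 1 fit, and 1 to 34 when 1 library was left out (34 without control 1 and 20 without control 2). With 1 library left in a group, that library is assumed to vary like the others. Of all genes tested in total RNA, limma called 23% lower and 23.1% higher without control 1. Without control 2 these shares were 13.3% and 12%. Counts of members or of protein-list genes from these fits are to be read beside the shares of all genes. With the replicate number as a block 8 members were called, and with the numbers crossed, an alternative chosen after seeing the data, 12. The numbers share no known source, same-numbered deviations correlated at 0.15 (footprints) and -0.30 (total RNA), and the block called 0 members in footprints and in the interaction. The interaction gave 0 to 0 without any 1 library. Protein-list genes called numbered 2 in footprints with all 8 libraries in 1 fit and 2 in the authors' deposited table. In total RNA they numbered 2 with the block, 4 with the crossed block, 1 with DESeq2, 4 in the authors' deposited table and 0 to 88 with 1 library left out (41 without control 2).

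Leaving out 1 library, the members' median log2 fold change lay between -0.48 and 0.14 in footprints and -0.47 to -0.18 in total RNA. Summed levels gave ratios between 0.739 and 0.898 in footprints and 0.648 to 1.01 in total RNA. The median footprint to total RNA ratio lay between -0.57 and -0.31. Signs changed for 4 of 22 named genes (members and list genes) in footprints. These were Rn7sk (-0.74 to 2.40 over the libraries left out), Snora57 (-0.43 to 2.39), Rnu3a (-0.37 to 0.28) and Rpph1 (-0.47 to 0.40), the last pair also with each column scaled to its own total (0.079 and 0.089). In total RNA they changed for Rmrp (-0.81 to 0.21), Rn7sk (-0.34 to 0.062), Rnu12 (-0.50 to 0.069), Rpph1 (-0.86 to 0.046) and Snord7 (-0.11 to 1.07). In the interaction they changed for Snora57 (-0.10 to 2.72) and Snord64 (-2.51 to 0.028). The cause of these changes was not tested. Depth limits the scarce RNAs, as 14 members in footprints (9 C/D, 3 H/ACA and 2 scaRNAs) had a library with under 10 reads.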
